A study of Mus musculus with 12 samples.

Results

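Pioglitazone was compared with vehicle on 4 of the 12 arrays of this series, all 4 that the labels call pioglitazone treated. Pioglitazone is a thiazolidinedione, a class of insulin-sensitizing drugs that bind the nuclear receptor PPAR-gamma. Each array held RNA of drug-treated and of vehicle-treated mouse cells in its 2 channels, and the RNA of each side was a pool of 3 cultures. Arrays 1 and 3 carried the drug in channel 1, the others carried it in channel 2. The remaining 8 arrays, 4 each, set telmisartan and irbesartan against vehicle in the same layout; these drugs block the angiotensin type 1 receptor. The labels give no cell type, strain, dose or treatment time, and they do not say whether the 4 arrays shared a pool or whether the 3 drugs shared vehicle RNA. The fit of the 4 arrays takes out the difference between channel orders (a dye term). Its standard errors and p-values thus rest on how far arrays of the same channel order differ, and this may be technical error alone.

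PPAR-gamma forms a heterodimer with a retinoid X receptor and binds direct repeats of a hexamer in the DNA. In fat cells it drives genes of fatty acid uptake, lipid droplets, glycerol supply and adipokine output, and its agonists also raise genes of mitochondrial oxidation. Fibroblast-like precursors lay down collagen and proteoglycans, and lower this output as they turn into fat cells.

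Values are log2 ratios of pioglitazone over vehicle, given for arrays 1 to 4 in that order where 4 values stand together, and as fitted value ± standard error (n = 4 arrays) otherwise. This standard error leaves out the difference between channel orders, so single arrays can lie much farther apart than it shows. Of 15671 features (probes, repeat spots averaged) with a gene symbol and values on at least 3 arrays, 15005 had all 4 values and 666 had 3. Their 14700 genes leave out 1804 genes of the array that had too few values. On these 4 arrays 11.65% to 17.42% of spots were empty, for a reason the sources used here do not give. Ratios hold no level, so neither the cell type nor any marker's abundance could be checked. No source names the numerator of the ratio. Channel 2 over channel 1 is the likely reading, taken because it puts most PPAR-gamma targets above 0 and most thiazolidinedione-repressed genes below 0. Under the other reading every sign would turn. Named genes of these lists include Olr1, Elovl3, Pdk4, Fabp5, Cd36, Aqp7, Plin2, Pparg, Retn, Agt and Hsd11b1. Their directions entered that choice and are not results. The turned ratios correlated at 0.884 and 0.913 across gene spots between arrays of the same channel order and at 0.663 to 0.732 between opposite orders; these are correlations across genes, which are not independent.

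In limma's moderated test with a dye term, 8657 of 15671 features (55.2%) passed an adjusted p of 0.05, with 4157 above and 4500 below 0. Most of these changes were small: the median absolute value was 0.24, and 3540 lay under 0.2. A change of at least 1.5-fold was also met by 910 features (5.81%), of which 324 rose and 586 fell, and at 2-fold 58 rose and 158 fell. Counted by gene, 3978 of 14700 (27.1%) rose, 4236 (28.8%) fell, 76 had features that passed in both directions and 6410 did not pass. The median over all genes was 0.005, and each count of a gene group below is to be read against these shares. Since 55.2% of features passed, a gene past the test is described by its size as well.

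The largest rise was that of Olr1, the receptor for oxidized LDL, which read 3.11, 3.64, 3.61 and 3.44 on the 4 arrays (3.45 ± 0.088, adjusted p = 3.38e-05), a 10.9-fold change. Elovl3, an elongase of very long fatty acids that brown fat expresses strongly, read 2.38, 2.89, 2.46 and 2.85 (2.64 ± 0.028). The keratin gene Krt23 read 2.45, 2.58, 2.84 and 2.45 (2.58 ± 0.071). All 4 arrays were high for each of these genes, and Elovl3 was higher on both arrays with the drug in channel 2. Arxes1, an adipocyte gene of the X chromosome, followed at 1.91, 1.99, 2.25 and 2.05 (2.05 ± 0.059), and Pdk4, whose kinase blocks pyruvate dehydrogenase, at 1.99, 2.00, 2.11 and 2.08 (2.05 ± 0.034). The remaining 15 of the 20 largest rises lay between 1.32 and 1.72. They include Cbr3, a carbonyl reductase (1.69 ± 0.025), Nus1, a subunit of the enzyme that makes dolichol (1.56 ± 0.036), the fatty acid binding protein gene Fabp5 (1.47 ± 0.030), Gys2, the glycogen synthase of liver (1.38 ± 0.054), and Hilpda, an inhibitor of lipolysis on the lipid droplet (1.33 ± 0.025). Across these 20 genes the range between the lowest and highest array was 0.05 to 0.53, with a median of 0.24. Gsdme, a pore-forming protein gene (1.34 ± 0.026), rose at 1 probe and read 0.11 ± 0.025 at its other probe.

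The largest fall was that of Camp, which encodes the antimicrobial peptide cathelicidin and read -2.77, -3.31, -3.20 and -3.37 (-3.16 ± 0.073, adjusted p = 3.08e-05), an 8.95-fold change. Phkg1, a catalytic subunit of phosphorylase kinase, read -2.02, -2.21, -2.34 and -2.39 (-2.24 ± 0.063), and Adcyap1r1, the receptor of the neuropeptide PACAP, read -2.0, -1.97, -2.27 and -2.31 (-2.14 ± 0.074). None of these genes came near 0 on any array. Sult1a1, a sulfotransferase of phenols, was at -2.09 ± 0.028, the proteoglycan gene Ogn at -2.05 ± 0.033 and the cytochrome P450 gene Cyp2f2 at -1.95 ± 0.029. The 20 largest falls include genes of secreted matrix proteins or their partners: Ogn, Abi3bp, Comp, Tgfbi, Dcn, Lum, Fn1, Sparcl1 and the activin-binding protein gene Fst. This grouping was made after the values were seen, and its share among all features was not counted. The others include Ralgds, an exchange factor for Ral (-1.69 ± 0.026), gamma-synuclein's gene Sncg (-1.60 ± 0.056) and the cytokine gene Il33 (-1.58 ± 0.044). Between arrays these 20 genes ranged over 0.13 to 1.47, and the widest range, that of Lars2, belongs to a set of spots described next.

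**Figure D1:**
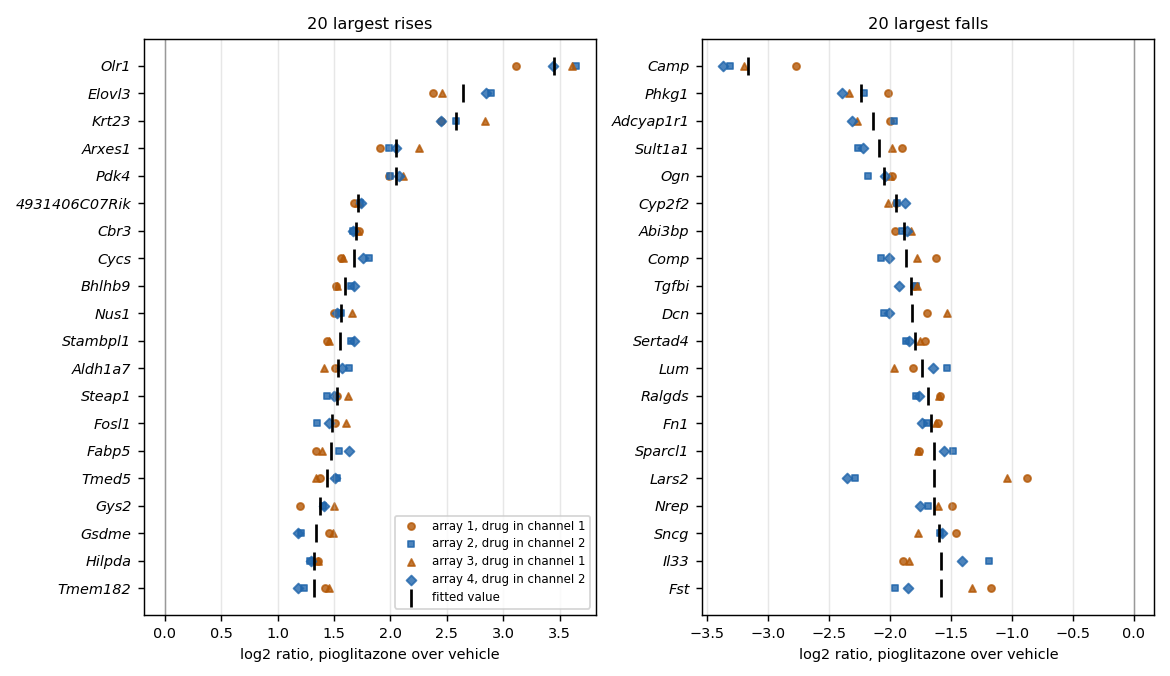
The 20 largest rises (left) and 20 largest falls (right), with the log2 ratio of pioglitazone over vehicle on the x axis, 1 marker per array coloured by the drug's channel, and a black bar at the fitted value. Olr1 and Camp lie farthest from 0, at 3.45 and -3.16, and Lars2 has the widest spread between channel orders.

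The channel order left a mark on many values. The dye coefficient passed the same threshold for 3044 features and exceeded the drug coefficient in 770 of the 8657 called features, but in 2 of the 910 at 1.5-fold or more. Of the called features 7175 (82.9%) had 1 sign on every measured array, and of the 910 larger ones 907 had. The median absolute value of the 910 was 0.745 on arrays with the drug in channel 1 and 0.835 on arrays with it in channel 2. In addition, 6 spots held an identical ratio (within 0.0015 on the log10 scale) on array 1, and again on array 3: Fabp4, COX2, Lpl, Pigt, Lars2 and a spot without a symbol, all at -0.88 and -1.04. On arrays 2 and 4 the same spots read 0.39 and 0.16 for Fabp4, -1.17 and -1.38 for Lpl, -1.69 and -1.74 for COX2, -1.99 and -2.04 for Pigt, and -2.29 and -2.35 for Lars2. Values of these genes on arrays 1 and 3 are therefore not separate measurements of each gene; why they coincide was not tested. Arrays 2 and 4 share a channel order, so on them alone a drug effect and a dye effect cannot be told apart.

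**Figure D2:**
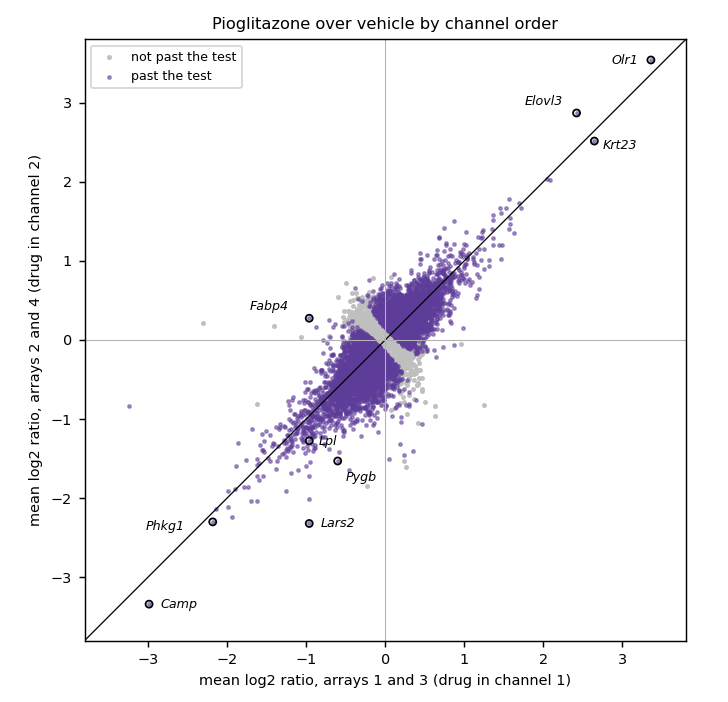
Mean log2 ratio of pioglitazone over vehicle on arrays 2 and 4 (y axis) against arrays 1 and 3 (x axis) for each feature, with features past the test in purple and the line of equal values in black. Large changes follow the line, while Fabp4, Lars2 and Pygb lie away from it.

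Genes that mark fat cells, and genes of the receptor pathway, moved in both directions. Among them Pparg, Cd36, Aqp7, Retn and Agt belong to the lists that set the sign of the ratios. Pparg itself fell, at -1.13, -1.04, -1.16 and -1.03 (-1.09 ± 0.025, adjusted p = 3.08e-05). Cd36, a fatty acid transporter and classical PPAR-gamma target, rose at 1.00, 1.07, 0.88 and 1.06 (1.00 ± 0.031). Angptl4, an inhibitor of lipoprotein lipase, rose at 0.85, 1.23, 0.78 and 1.08 (0.98 ± 0.036). The arrays of each of these genes stayed on 1 side of 0. Aqp7, the glycerol channel of fat cells (1.11 ± 0.029), rose as well. So did Pck1, the phosphoenolpyruvate carboxykinase gene, at 0.73, 1.26, 0.63 and 1.31 (0.98 ± 0.030), higher on the arrays with the drug in channel 2. The adipokine genes Adipoq, Retn for resistin and Agt for angiotensinogen fell. Adipoq read -0.64, -1.04, -1.04 and -1.08 (-0.95 ± 0.068), with array 1 nearest to 0, and Retn read -0.67, -0.55, -0.67 and -0.59 (-0.62 ± 0.026). Fabp4, the fatty acid carrier of fat cells, read -0.88, 0.39, -1.04 and 0.16. Its fitted value of -0.34 ± 0.051 passed (adjusted p = 0.00388) although its arrays split by channel order. In the fit of all 12 arrays its adjusted p was 0.0571, so no direction is given for it. Counts of any list that holds Fabp4 follow the test alone and take it as fallen.

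Lep for leptin (0.11 ± 0.028, adjusted p = 0.0241), Slc2a4 for the insulin-responsive glucose transporter (-0.11 ± 0.026, adjusted p = 0.0169) and Cidea, a lipid droplet protein of brown fat (0.19 ± 0.037, adjusted p = 0.0100) passed with small values. Leaving out single arrays ended these calls for Lep and Slc2a4, with adjusted p-values of up to 0.102 and 0.0717. The angiotensin receptor gene Agtr1a (0.07 ± 0.028, adjusted p = 0.0907) and Rxra, a partner of PPAR-gamma (-0.09 ± 0.031, adjusted p = 0.0602) did not pass. Hsd11b1, which makes active glucocorticoid, fell at -0.94, -1.04, -0.99 and -1.04 (-1.001 ± 0.026), and Dlk1, an inhibitor of adipogenesis, at -1.06, -0.97, -1.15 and -0.96 (-1.03 ± 0.029). For both genes the lowest and highest array differed little. The brown fat gene Ucp1 was on the array but had no value on these arrays.

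**Figure D3:**
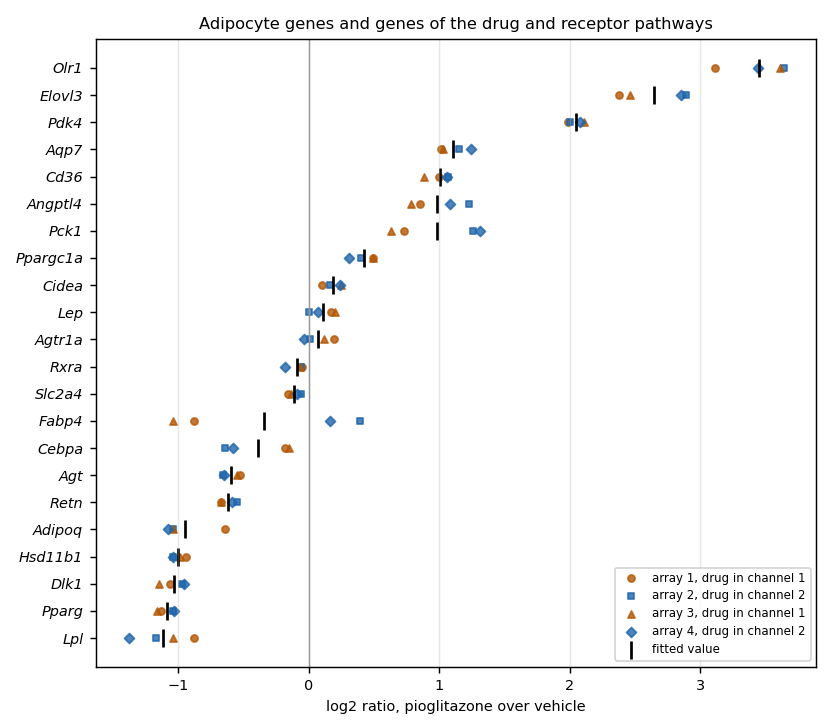
Log2 ratio of pioglitazone over vehicle (x axis) on each array for 22 genes of fat cells, PPAR-gamma and the renin-angiotensin system, ordered by fitted value (black bar), with colours for the drug's channel. Olr1, Elovl3 and Pdk4 stand above 2, Pparg and Lpl lie near -1.1, and the arrays of Fabp4 fall on both sides of 0.

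The list of PPAR-gamma targets was the basis for the direction of the ratios, so its direction is not a result. Of its 24 genes 16 rose, 6 fell and 2 did not pass, with a median of 0.44. In the fit of all 12 arrays 15 rose and 5 fell. Among the thiazolidinedione-repressed genes, also used for the direction, 7 of 9 fell and 1 rose (median -0.35). The list of targets was searched for the PPAR response element, the direct repeat of AGGTCA with 1 base between the copies, on both strands and with up to 2 mismatches, in RefSeq windows from 250 bases before to 50 bases after each transcript start (build GRCm38.p6). Of 24 windows of target genes 5 held a match (20.8%), against 3.86% of all 32851 windows, and the 4 genes with one were Aqp7, Cd36, Plin2 and Slc25a20. These are counts of letters in a list drawn up as targets of the receptor, so the share is not a result about the drug. Of 1362 matches 27 overlapped a match of another motif searched here. Plin2, a coat protein of lipid droplets, is shown because it rose most among named genes with a match, at 1.37, 1.05, 1.05 and 0.98 (1.11 ± 0.057). Its window lies at chr4:86670010-86670309 on the minus strand, and the capitals mark the match, bases 26 to 38, on the opposite strand with 2 mismatches.
Plin2: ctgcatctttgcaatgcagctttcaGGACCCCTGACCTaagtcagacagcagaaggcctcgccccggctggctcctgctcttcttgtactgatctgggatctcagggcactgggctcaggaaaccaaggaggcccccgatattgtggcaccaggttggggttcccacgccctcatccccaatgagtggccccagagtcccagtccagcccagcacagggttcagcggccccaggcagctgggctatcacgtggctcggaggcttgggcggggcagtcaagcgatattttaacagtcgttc

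Among the lists of lipid metabolism the largest shares of genes that rose were in sterol synthesis, mitochondrial oxidation and fatty acid elongation, while lipogenesis was mixed. Of 21 genes of mitochondrial fatty acid oxidation 17 rose, 0 fell and 4 did not pass (median 0.34). Hadhb, a subunit of the trifunctional protein, read 1.13, 0.98, 1.11 and 0.99 (1.05 ± 0.025), the carnitine carrier gene Slc25a20 reached 0.89 ± 0.027 and the electron carrier gene Etfdh 0.73 ± 0.028. Of 25 peroxisomal genes 13 rose and 8 fell, with the biogenesis genes Pex16 (0.72 ± 0.026), Pex14 (0.58 ± 0.026) and Pex3 (0.57 ± 0.038) up and the fatty acid transporter gene Abcd2 (-0.81 ± 0.030) down. Of 18 genes of fatty acid uptake and activation 10 rose and 4 fell, or 10 and 3 in the fit of all 12 arrays. Lpl, which releases fatty acids from lipoproteins, read -0.88, -1.17, -1.04 and -1.38 (-1.12 ± 0.048), those of arrays 1 and 3 being the shared ratios. Only arrays 2 and 4 thus read Lpl apart from the other shared spots, and both were low. Both carried the drug in channel 2, so on them a drug effect and a dye effect on Lpl cannot be told apart. The fitted value and its error use all 4 arrays, and the fit of all 12 arrays gave a standard error of 0.135. Of 11 elongase and dehydratase genes 8 rose, and after Elovl3 the ketoreductase gene Hsd17b12 (1.25 ± 0.036), Hacd1 (0.55 ± 0.029) and Elovl6 (0.55 ± 0.041) led. Of 19 genes of triglyceride synthesis and glycerol supply 9 rose and 3 fell, with the acyltransferase genes Agpat3 (0.86 ± 0.030) and Gpat3 (0.82 ± 0.028) next to Aqp7 and Pck1. In the list of lipolysis and lipid droplet proteins 7 of 20 rose and 7 fell: Hilpda and Plin2 stood at the top, and Pnpla3, a droplet-bound lipase (-1.06 ± 0.031), and Cav1, the caveolae protein gene (-0.82 ± 0.030), at the bottom.

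Of 20 genes of lipogenesis and desaturation 7 rose and 10 fell (median -0.09). Thrsp, a nuclear regulator of lipogenesis, read -1.41, -1.54, -1.50 and -1.51 (-1.49 ± 0.030), and Srebf1, a transcription factor of fatty acid synthesis, reached -0.62 ± 0.028. Against these, the carboxylase gene Acacb read 0.97, 0.73, 0.95 and 0.78 (0.86 ± 0.026), and the acetyl-CoA synthetase gene Acss2 reached 0.77 ± 0.026. Thrsp and Srebf1 thus moved opposite to Acacb and Acss2 on all 4 arrays. These genes were named for their size and do not stand for all regulators and enzymes of the list. Cholesterol synthesis and its control rose in 19 of 22 genes and fell in 2, with a median of 0.50. Hmgcs1, which makes HMG-CoA, read 0.95, 1.13, 0.93 and 1.09 (1.03 ± 0.026), and Insig1, a sterol-regulated retention protein (0.95 ± 0.031), the isomerase gene Idi1 (0.93 ± 0.027) and Hsd17b7 (0.93 ± 0.027) lay just below it. The core of the sterol regulatory element, CACCCCAC on either strand, stood in 1 of 23 windows of these genes (4.35%), against 2.87% of all windows, and 1 of its 1024 matches overlapped another motif. The gene with the match was Hmgcs1, whose window lies at chr13:119690101-119690400 on the plus strand and is printed with the match, bases 115 to 122, in capitals.
Hmgcs1: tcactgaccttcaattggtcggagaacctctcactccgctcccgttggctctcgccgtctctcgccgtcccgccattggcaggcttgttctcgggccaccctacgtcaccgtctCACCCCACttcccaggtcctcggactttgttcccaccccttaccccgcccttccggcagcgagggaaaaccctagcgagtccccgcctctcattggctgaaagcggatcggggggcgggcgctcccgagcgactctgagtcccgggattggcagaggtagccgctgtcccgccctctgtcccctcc

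Listed genes of the respiratory chain were higher nearly throughout. Of 33 complex I subunits 31 rose, 0 fell and 2 did not pass (median 0.34), of 14 genes of complexes II and III and cytochrome c all 14 rose (median 0.52), of 15 complex IV subunits 11 rose and 2 fell (median 0.43), and of 15 ATP synthase subunits 13 rose and 1 fell (median 0.32). Most single changes were below 1.5-fold: 4, 4, 4 and 2 genes of these lists reached it. COX2, a complex IV subunit gene outside these lists, read -0.88, -1.69, -1.04 and -1.74. Its values on arrays 1 and 3 are the shared ratios. Arrays 2 and 4 were low as well, but both carried the drug in channel 2, so drug and dye cannot be told apart. Cycs, for cytochrome c, read 1.56, 1.81, 1.58 and 1.76 (1.68 ± 0.026) and 1.495 ± 0.029 at its other probe. Of complex I, Ndufab1 read 0.76, 0.84, 0.77 and 0.77 (0.78 ± 0.028), with array 2 apart from the others, and Ndufa5 read 0.70, 0.75, 0.73 and 0.75 (0.73 ± 0.025). These subunits changed less than Cycs, and their arrays lay closer together than those of Cycs. In complex III Uqcrfs1 for the iron-sulfur protein reached 0.64 ± 0.025 and Uqcrb 0.62 ± 0.026, in complex IV Cox7b 0.79 ± 0.027 and Cox6a2 0.77 ± 0.029, and in the ATP synthase Atp5g1 0.63 ± 0.038 and Atp5o 0.52 ± 0.032. Atp5pb rose at both probes, by 0.64 ± 0.033 and 0.21 ± 0.032.

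NRF1 is a transcription factor known for binding promoters of respiratory genes, and its core GCGCANGCG, on either strand, stood in 22 of 69 windows of the tested genes of these lists (31.9%), which belong to 21 genes, against 6.25% of all windows. Of 2856 matches in all windows 1 overlapped another motif. These are counts of letters and say nothing of binding. Cycs, the named gene with the largest value among those with a match, is printed from chr6:50566520-50566819 on the minus strand, with the match (bases 190 to 198, on the opposite strand) in capitals.
Cycs: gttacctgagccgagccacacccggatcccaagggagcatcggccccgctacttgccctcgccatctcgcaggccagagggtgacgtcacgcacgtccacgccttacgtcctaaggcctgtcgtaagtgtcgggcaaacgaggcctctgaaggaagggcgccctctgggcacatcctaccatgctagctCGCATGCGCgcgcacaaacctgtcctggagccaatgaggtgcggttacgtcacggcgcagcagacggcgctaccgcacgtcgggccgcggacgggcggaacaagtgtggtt

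In further mitochondrial lists more genes rose than fell as well. In the citrate cycle 8 of 13 genes rose and 2 fell: Idh3a, a subunit of the NAD-linked isocitrate dehydrogenase, read 0.93, 1.49, 0.80 and 1.53 (1.19 ± 0.033), higher on both arrays with the drug in channel 2, and citrate synthase's Cs reached 0.83 ± 0.031, while the NADP-linked Idh2 fell by 0.54 (± 0.029). In the pyruvate dehydrogenase list 6 of 9 rose, among them the subunit gene Pdha1 (0.78 ± 0.026) besides the kinase gene Pdk4, and the phosphatase gene Pdp1 fell by 0.54 (± 0.028). Genes for the complex and for its inhibitor thus rose together. Of 71 mitochondrial ribosomal protein genes 52 rose and 5 fell (median 0.20), led by Mrpl55 (0.80 ± 0.025), Mrps10 (0.60 ± 0.026) and Mrps22 (0.60 ± 0.028). Of 30 genes of import and chaperones 23 rose and 2 fell (median 0.30); Timm8a1, an intermembrane space chaperone, read 0.98, 1.10, 0.98 and 1.08 (1.04 ± 0.025), and the chaperonin genes Hspe1 and Hspd1 reached 0.86 ± 0.029 and 0.80 ± 0.034. Of 15 mitochondrial transcription and replication factors 8 rose and 1 fell, with the coactivator genes Ppargc1b at 0.84, 0.85, 0.91 and 0.75 (0.84 ± 0.032) and Ppargc1a at 0.49, 0.40, 0.49 and 0.31 (0.42 ± 0.028). Of 30 inner membrane carriers 17 rose and 4 fell. Branched-chain amino acid breakdown stood apart from these lists, with 4 of 22 genes up and 12 down (median -0.13): Mccc1 (-0.51 ± 0.033) and Oxct1 (-0.49 ± 0.034) fell, whereas Bckdhb (0.54 ± 0.025) and Dbt (0.49 ± 0.031), subunits of the keto acid dehydrogenase, rose.

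Genes of glucose and glycogen metabolism moved both ways, while in the lists of insulin signalling and of insulin-like growth factors more genes fell than rose. Of 21 genes of glucose uptake, glycolysis and lactate transport 8 rose and 7 fell. The lactate and pyruvate transporter gene Slc16a1 read 1.24, 1.38, 1.20 and 1.36 (1.29 ± 0.026), Pfkfb3, which makes the activator of phosphofructokinase, reached 1.00 ± 0.027, and the glucose transporter gene Slc2a1 read 0.43, 1.09, 0.45 and 1.10 (0.77 ± 0.025), all above 0 but split by channel order. Of 17 glycogen genes 5 rose and 7 fell. Besides Phkg1, the phosphorylase gene Pygb read -0.49, -1.64, -0.71 and -1.42 (-1.07 ± 0.056), and Ppp1r3c, which targets phosphatase to glycogen, reached -1.02 ± 0.033. The split between channel orders was wide for Pygb and small for Ppp1r3c. In insulin receptor signalling 2 of 24 genes rose and 12 fell (median -0.13), with Pik3r2 (-0.70 ± 0.026) and the inhibitory adaptor gene Grb14 (-0.59 ± 0.052) down and Pik3cb (0.53 ± 0.037) up. Of 13 insulin-like growth factor genes 3 rose and 9 fell (median -0.43), among them the protease gene Pappa (-1.02 ± 0.043) and the binding protein genes Igfbp4 (-0.89 ± 0.034) and Igfbp7 (-0.84 ± 0.029).

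Of 33 adipogenic transcription factors 21 fell and 8 rose (median -0.18). Zfp521, an inhibitor of adipogenesis, read -1.10, -1.36, -1.28 and -1.34 (-1.27 ± 0.038), and Cebpa, a driver of it, read -0.18, -0.64, -0.15 and -0.58 (-0.39 ± 0.027), lower on the arrays with the drug in channel 2. Both inhibitors and drivers were thus among the genes that fell. Of 17 PPAR receptors and coregulators 4 rose and 6 fell, and of 18 brown fat genes 8 rose and 6 fell. In the brown fat list Elovl3 alone reached 1.5-fold; Fgf21, a metabolic hormone gene, read 0.35, 0.37, 0.73 and 0.33 (0.45 ± 0.066), with array 3 apart, and Fgfr1 reached -0.48 ± 0.027. Of 25 adipokine and adiponectin receptor genes 9 rose and 11 fell, the latter led by the apolipoprotein gene Apoc1 (-1.33 ± 0.030). In the renin-angiotensin list 1 of 10 genes rose and 4 fell: Agtr2, the type 2 receptor, read -1.04, -1.08, -0.84 and -0.94 (-0.98 ± 0.046), Agt -0.53, -0.66, -0.55 and -0.65 (-0.60 ± 0.025) and the aminopeptidase gene Anpep -0.28, -0.47, -0.42 and -0.37 (-0.39 ± 0.036). These 3 genes were below 0 on every array.

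In each list of extracellular matrix genes more genes fell than rose. Small leucine-rich proteoglycans, which regulate collagen fibres, fell in 6 of 9 cases and rose in 1, with the lowest median of any list (-0.85). Ogn read -1.98, -2.18, -2.0 and -2.04, and Dcn for decorin read -1.70, -2.05, -1.53 and -2.01 (-1.82 ± 0.037). Lum for lumican reached -1.74 ± 0.041 and Aspn for asporin -1.46 ± 0.034. On every array all 4 of these genes were clearly below 0. Of 30 collagen genes 18 fell and 5 rose (median -0.20), led by Col3a1 (-1.34 ± 0.039), Col2a1 (-1.30 ± 0.028), Col1a2 (-1.15 ± 0.026) and Col1a1 (-1.14 ± 0.032). Of 18 cross-linking and processing enzymes 16 fell and 1 rose (median -0.42): Lox, the lysyl oxidase, read -1.55, -1.42, -1.52 and -1.41 (-1.48 ± 0.025), and the procollagen processing genes Pcolce and Bmp1 reached -1.15 ± 0.027 and -0.73 ± 0.033. Of 44 matrix glycoproteins 27 fell and 5 rose (median -0.26), with Fn1 for fibronectin at -1.61, -1.70, -1.62 and -1.74 (-1.67 ± 0.026) and Tgfbi at -1.80, -1.79, -1.78 and -1.93 (-1.82 ± 0.034), array 4 being apart. Of 32 proteases and inhibitors 19 fell and 3 rose, among them Adamts5 (-1.45 ± 0.035), Adamts1 (-1.33 ± 0.029) and the membrane collagenase gene Mmp14 (-1.09 ± 0.026). Of 26 integrins and laminins 11 fell and 2 rose, with Lamb3 at -0.72, -1.37, -0.71 and -1.39 (-1.05 ± 0.025), split by channel order.

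Preadipocyte and fibroblast markers moved with the matrix: 9 of 15 fell, 1 rose and 5 did not pass, with a median of -0.67, and 15 of 19 markers on the array had enough values. Fst read -1.17, -1.96, -1.33 and -1.85 (-1.58 ± 0.040), the growth factor receptor gene Pdgfra -1.50, -1.32, -1.57 and -1.24 (-1.41 ± 0.030) and Gas6, a ligand of TAM receptors, -1.32, -1.45, -1.24 and -1.42 (-1.36 ± 0.029). Each was low on all arrays. In such RNA from whole cultures fewer cells of a type and less RNA per cell cannot be told apart, and the part of a cell mixture in the matrix result was not tested. Lists of other cell markers had medians near 0, at 0.05 for 6 macrophage markers, 0.04 for 11 endothelial, 0.03 for 13 skeletal muscle and 0.04 for 11 hepatocyte markers, with 0, 4, 3 and 0 genes up and 1, 3, 4 and 1 down. Of these Acta1 for skeletal actin (-0.69 ± 0.026) and, among endothelial genes, Nos3 (0.47 ± 0.027) and Flt1 (-0.43 ± 0.028) moved most. Of 13 macrophage markers on the array 7 had too few values to be tested. In the actin and contractile list 22 of 34 genes went down and 4 up (median -0.28), with the myosin light chain gene Myl9 (-1.27 ± 0.035) and Cnn2 for calponin (-1.23 ± 0.028) down. Des for desmin read -0.52, -1.11, -0.53 and -1.16 (-0.83 ± 0.026), lower on the arrays with the drug in channel 2. Flna for filamin reached -0.79 ± 0.028 at 1 probe and 0.06 ± 0.039 at its other.

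Among growth factor pathways, of 47 genes of TGF-beta, BMP and SMAD signalling 29 fell and 5 rose (median -0.18): after Fst came Ltbp1, which stores latent TGF-beta (-1.24 ± 0.040), Fstl1 (-1.10 ± 0.028) and the activin subunit gene Inhbb (-1.02 ± 0.035). Ligand-binding proteins and ligands were thus among the named falls. Of 41 Wnt genes 16 fell and 7 rose (median -0.02), with the transcription factor gene Lef1 at -1.04, -1.12, -1.06 and -1.06 (-1.07 ± 0.027), the antagonist genes Sfrp2 (-1.05 ± 0.064) and Dkk2 (-1.04 ± 0.035) and the receptor gene Fzd2 (-0.92 ± 0.027) down.

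In each immune list more genes fell than rose. Of 25 acute-phase and complement genes 14 fell and 3 rose (median -0.16). After Camp, Orm2 and Orm1, which encode orosomucoids, reached -1.44 ± 0.027 and -1.37 ± 0.038, and Hp for haptoglobin -1.20 ± 0.035. Of 33 chemokine and cytokine genes 15 fell and 6 rose, with Il33 at -1.89, -1.19, -1.84 and -1.41 (-1.58 ± 0.044), Il15 at -1.10, -1.29, -1.25 and -1.30 (-1.24 ± 0.035) and the chemokine genes Ccl6 (-0.94 ± 0.069) and Cx3cl1 (-0.91 ± 0.034). Il33 was lower on the arrays with the drug in channel 1, while Il15 varied little. Of 30 interferon response genes 14 fell and 4 rose, led by Ifit3 (-0.80 ± 0.032) and the antiviral membrane protein genes Ifitm2 (-0.63 ± 0.038) and Ifitm3 (-0.60 ± 0.025). Of 12 interferon-inducible GTPases 6 fell and 1 rose, with Gbp3 at -1.03, -1.03, -1.13 and -0.87 (-1.02 ± 0.039) and Gbp4 at -0.69 ± 0.035.

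Most genes of cell division in the list rose. Of 47 genes of mitosis, centromere and spindle 36 rose and 5 fell (median 0.30): Cenpa, the centromeric histone, read 1.48, 1.12, 1.45 and 0.92 (1.24 ± 0.040), the kinetochore motor gene Cenpe 1.02, 1.08, 1.09 and 1.11 (1.07 ± 0.028) and the cyclin-dependent kinase partner gene Cks2 0.71, 1.12, 0.79 and 1.12 (0.93 ± 0.028). All 3 were above 0 on each array, and Cenpa and Cks2 split by channel order in opposite ways. Of 45 genes of DNA replication and nucleotide supply 23 rose and 9 fell (median 0.14), with the uracil glycosylase gene Ung (1.27 ± 0.042), the replication licensing inhibitor gene Gmnn (0.89 ± 0.025) and the ribonucleotide reductase gene Rrm2 (0.75 ± 0.047). Mcm2, a subunit of the replicative helicase, read 0.69, 0.66, 0.41 and 0.68 (0.61 ± 0.052), array 3 being the low one. The cell cycle homology region is an element of mitotic gene promoters. Its letters TTTGAA, on either strand, stood in 28 of 42 windows of the mitosis genes (66.7%), against 17.9% of all windows; 26 of its 6737 matches overlapped another motif, and the list's windows held it in 25 of 39 genes. Cenpa is printed as the named gene with the largest value among these, from chr5:30666636-30666935 on the plus strand, with the match (bases 267 to 272) in capitals.
Cenpa: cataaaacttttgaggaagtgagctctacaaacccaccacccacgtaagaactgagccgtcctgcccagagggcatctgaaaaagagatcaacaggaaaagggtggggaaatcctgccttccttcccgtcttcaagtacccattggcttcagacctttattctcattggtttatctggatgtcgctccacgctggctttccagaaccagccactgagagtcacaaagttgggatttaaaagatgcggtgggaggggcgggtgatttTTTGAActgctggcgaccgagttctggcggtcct

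Among stress and protein turnover genes, 18 of 28 targets of Atf4, the transcription factor of the integrated stress response, rose and 6 fell (median 0.25). Asns for asparagine synthetase read 0.95, 0.94, 0.92 and 1.03 (0.96 ± 0.029), the folate enzyme gene Mthfd2 reached 0.90 ± 0.026 and Psph of serine synthesis 0.89 ± 0.028. Of 22 aminoacyl-tRNA synthetase genes 15 rose and 1 fell (median 0.24), led by Cars (0.62 ± 0.026) and the scaffold gene Eef1e1 (0.60 ± 0.033). Of 37 proteasome subunits 20 rose and 5 fell (median 0.12), with Psmb3 at 0.60 ± 0.027 as the sole one at 1.5-fold. ER chaperones were split, 15 of 35 up and 10 down, with Dnajb9 (0.79 ± 0.033) and the oxidase gene Ero1a (0.73 ± 0.030) against Pdia5 (-0.76 ± 0.027). Of 67 genes for cytosolic ribosomal proteins 36 fell and 4 rose (median -0.13): Rplp1 read -0.47, -0.79, -0.64 and -0.85 (-0.69 ± 0.037) and Rps18 reached -0.85 ± 0.059 at 1 probe and -0.12 ± 0.060 at its other. The cytosolic and mitochondrial ribosome lists thus had medians of opposite sign. Of 18 heat shock genes 7 rose and 4 fell, with Cryab at -0.90 ± 0.034; Hspa4 read -0.34 ± 0.035, 0.04 ± 0.025 and 0.38 ± 0.044 at its 3 probes, so no direction is given for it.

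The composite site of C/EBP and Atf4, TTGCATCA on either strand, stood in 6 of 28 windows of the Atf4 list (21.4%), against 0.895% of all windows, and 0 of its 296 matches overlapped another motif. That list was drawn up as targets of Atf4, so the share is not a result about the drug. The 6 genes were Atf3, Chac1, Fgf21, Nupr1, Slc7a11 and Vldlr. Fgf21 is the one among them that the results name; its window lies at chr7:45615441-45615740 on the minus strand, with the match (bases 112 to 119) in capitals.
Fgf21: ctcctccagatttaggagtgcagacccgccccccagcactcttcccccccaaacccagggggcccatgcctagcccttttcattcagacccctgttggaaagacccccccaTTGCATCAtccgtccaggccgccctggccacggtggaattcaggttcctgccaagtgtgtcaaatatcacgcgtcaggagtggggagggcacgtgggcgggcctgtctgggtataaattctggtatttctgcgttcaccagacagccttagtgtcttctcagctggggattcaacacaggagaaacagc

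Detoxification genes went both ways. Of 44 genes of glutathione, thioredoxin and antioxidant defence 16 rose and 20 fell. The glutathione transferase genes Gstm6 (-1.24 ± 0.050), Gstm1 (-1.22 ± 0.031) and Gstm2 (-1.11 ± 0.033) fell together, and as near-identical paralogs their probes may share signal, while the microsomal Mgst3 (0.83 ± 0.027) rose. Of 33 genes of aldehyde and carbonyl metabolism 13 rose and 11 fell: Cbr3 read 1.72, 1.67, 1.71 and 1.67, Aldh1a7 reached 1.53 ± 0.031, and Akr1c14, an aldo-keto reductase, read -1.48, -1.21, -1.43 and -1.19 (-1.33 ± 0.026). Of 26 cytochrome P450 and sulfotransferase genes 11 fell and 5 rose, with Cyp1b1 (-1.05 ± 0.029) after Sult1a1 and Cyp2f2. Among 27 AP-1 and immediate early genes 13 rose and 6 fell. Fosl1, an AP-1 subunit, read 1.51, 1.35, 1.61 and 1.46 (1.48 ± 0.034), Dusp6, a phosphatase of ERK, 1.23, 1.38, 1.24 and 1.40 (1.31 ± 0.025), and the transcription factor gene Maf -1.35, -1.34, -1.49 and -1.27 (-1.37 ± 0.036, and -0.41 ± 0.030 at its other probe). All arrays of each of these genes had 1 sign. The glucocorticoid list had 5 of 19 genes up and 9 down, with Sgk1 (-0.81 ± 0.026) and Errfi1 (-0.90 ± 0.025) among the latter. In the circadian clock list 2 of 19 rose and 9 fell, none by 1.5-fold. Per1 at -0.17, -0.69, -0.16 and -0.62 (-0.41 ± 0.027) and Arntl at -0.40 ± 0.035 were the lowest, both lower on the arrays with the drug in channel 2. Of 19 coagulation genes 5 rose and 6 fell, with Thbd for thrombomodulin at -1.29 ± 0.029.

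**Figure D4:**
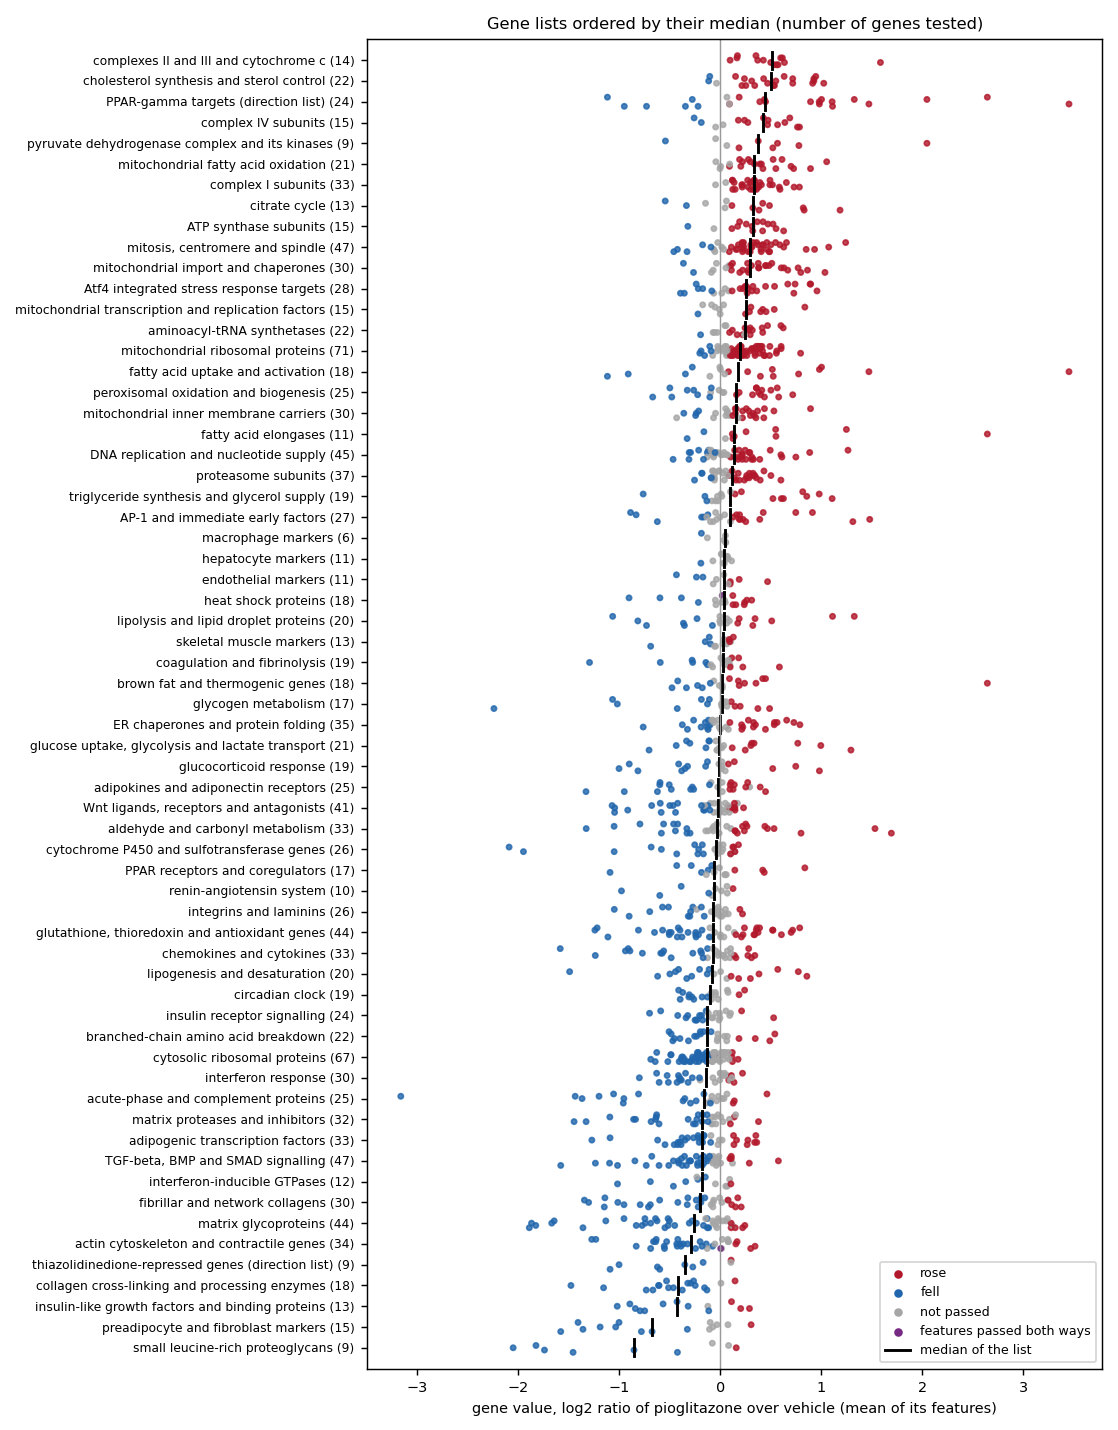
Each dot is a gene's log2 ratio of pioglitazone over vehicle (x axis, mean of its features), by gene list (y axis, number of genes tested in brackets), coloured by its result in the test, with a black bar at the list's median. Lists are ordered by median, from complexes II and III and cytochrome c at 0.52 to small leucine-rich proteoglycans at -0.85.

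The other drugs were used to ask where pioglitazone stood apart. In the fit of all 12 arrays the difference from telmisartan passed for 2365 of 14808 features (16.0%) and that from irbesartan for 2900 (19.6%); 128 and 170 of them differed by at least 1.5-fold, or 82 and 87 with each array scaled to a common spread. Doses and times are not given, so these are differences between the arrays as labelled, and because the drugs may share vehicle RNA their values are set side by side. Among features that also passed for pioglitazone against vehicle, Olr1 was furthest above both other drugs. It was at 3.45 ± 0.12 with pioglitazone and 0.49 with telmisartan (difference 2.97 ± 0.16, adjusted p = 1.95e-06). With irbesartan it was at 1.23 (difference 2.22 ± 0.16, adjusted p = 1.38e-05). Krt23, Pdk4 and Fosl1 were above both other drugs, by 1.04 ± 0.13, 1.04 ± 0.057 and 1.10 ± 0.064 against telmisartan and by 1.33 ± 0.13, 1.18 ± 0.057 and 0.96 ± 0.064 against irbesartan. Camp and Ogn were below both, by -1.47 ± 0.17 and -1.21 ± 0.037 against telmisartan and by -1.71 ± 0.17 and -1.29 ± 0.037 against irbesartan. For these genes the other drugs had the same sign and smaller values.

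Elsewhere another drug had the opposite sign or was near 0. Gbp3 was at -1.02 with pioglitazone and 0.50 with telmisartan (difference -1.52 ± 0.044, adjusted p = 3.50e-08), and at -0.23 with irbesartan. Ifit3 was at -0.80, 0.41 and -0.80 with pioglitazone, telmisartan and irbesartan; the difference from telmisartan was -1.21 ± 0.081 (adjusted p = 6.45e-06), that from irbesartan 0.004 ± 0.081 (adjusted p = 0.981). Akr1c14 was at -1.33, -0.02 and -0.42 in the same order, and Ppargc1a at 0.42, -0.13 and 0.28 (adjusted p of the differences 3.16e-05 and 0.0482). Retn was at -0.62, -0.34 and 0.09, with adjusted p-values of 0.000443 and 9.56e-07. Telmisartan thus parted from pioglitazone in sign for Gbp3, Ifit3 and Ppargc1a. Mrc2, a collagen receptor gene, was at -1.22 with pioglitazone, from arrays at -1.66, -1.23, -0.80 and -1.17, against -0.25 and -0.04. Elovl3 was at 2.64, 2.19 and 2.52: the difference from telmisartan passed (0.46, adjusted p = 0.00218), that from irbesartan did not (0.13, adjusted p = 0.292).

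Among the 20 largest rises under pioglitazone 19 exceeded telmisartan and 19 exceeded irbesartan past the test, and among the 20 largest falls 17 and 20 were lower. These genes were chosen for their size under pioglitazone, which favours such a difference, so the counts describe the genes and no more. The median of the 20 rises was 1.56 with pioglitazone, 0.97 with telmisartan and 0.89 with irbesartan, and that of the 20 falls was -1.81, -1.05 and -0.98. By list, 15 of 21 genes of mitochondrial fatty acid oxidation were above telmisartan and 0 below (medians 0.34 and 0.07), and 10 were above irbesartan and 2 below (median 0.20). Matrix glycoproteins were below telmisartan in 19 of 42 cases and below irbesartan in 20, and above either in 0. Over all 14808 features 1389 were below telmisartan and 976 above it past the test. Against irbesartan 1649 were below and 1251 above. Counts and medians by list come from arrays that were not scaled. The SD across gene spots was 0.297 to 0.362 on pioglitazone arrays, 0.255 to 0.328 on telmisartan arrays and 0.24 to 0.276 on irbesartan arrays. How far this spread enters the list counts was not tested. Cholesterol genes were split against telmisartan, 5 of 22 above and 5 below, with medians of 0.50, 0.48 and 0.47 for pioglitazone, telmisartan and irbesartan. Mitosis genes were above irbesartan in 19 of 42 cases and below in 3, and Dbp, a clock output gene, was lower with pioglitazone (-0.37) than with telmisartan (0.07, adjusted p = 5.41e-05).

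**Figure D5:**
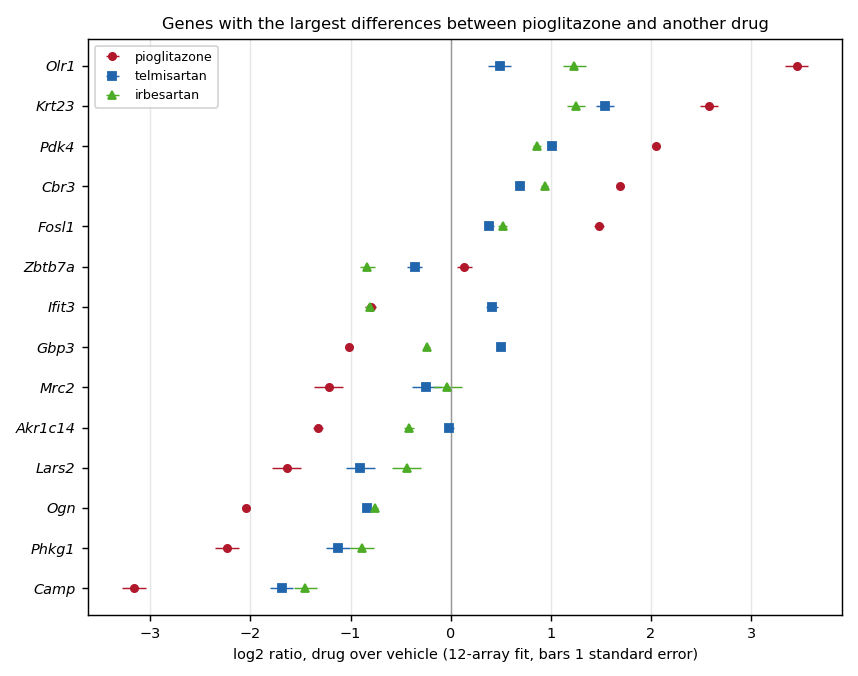
Log2 ratio of drug over vehicle (x axis, from the fit of all 12 arrays, bars of 1 standard error) for 14 genes with large differences between pioglitazone and either other drug. They were drawn only from features that also passed the pioglitazone test, which favours genes far from 0 under pioglitazone. Pioglitazone (red) lies farther from 0 than telmisartan (blue) and irbesartan (green) for 12 of the 14 genes, and this describes the genes drawn and no more. Ifit3 coincides with irbesartan, and Zbtb7a is near 0 with pioglitazone.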

How the data were processed

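Expression was measured in mouse cells on 2-colour Agilent arrays. The deposited values were read as log10 channel ratios of each spot; no header states the unit, which was inferred from the values, symmetric around 0 and ending at -2 and 2. The authors' background correction and dye normalisation are not given in the sources used here. Array medians lay within 0.00264 of 0 and were kept. Ratios were converted to log2, turned to drug over vehicle by the labelled channels, and repeat spots (48 sets) averaged. Of 22393 spots 18218 had 1 gene symbol in the platform annotation, 16 had several and 4159 none; 18175 of the 18218 matched the gene table by Entrez ID.

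Features with 1 symbol and values on at least 3 of 4 arrays were fitted with limma 3.58.1 in R 4.3.3 (drug and dye coefficients, 2-sided, Benjamini-Hochberg over all features, threshold 0.05), and differences between drugs in 1 fit of 12 arrays. The script was checked on simulated data. Signal over background is unknown, and the number of arrays limits precision. A gene rose if a feature passed above 0 and none below. Named genes are the 20 largest rises and 20 largest falls with 1 sign on 4 arrays. Added to them are up to 4 passing members of each of 63 lists and the 25 preset genes. Also named are the 5 largest differences in each direction from either drug, among features that passed both that difference and the pioglitazone test. Members, lists and rules were chosen with earlier results of these data known. Preset genes Cfd and Gk are not among the named spots. Alternatives are given in the closing section. Figures used matplotlib 3.10.9.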

Additional observations from a re-analysis of the deposited data

Results flagged for a closer look

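Of 258 named genes with values on 4 arrays, 9 had 1 array whose gap to the nearest other array took a larger share of the whole range than Dixon's 95% limit for 4 values. Chance flags about 1 group in 20.

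The low arrays were array 3 for Mcm2 (0.41), array 4 for Atp5o (0.43), Tgfbi (-1.93), Myh2 (-0.03) and Rxra (-0.18). The high arrays were array 1 for Adipoq (-0.64) and Acta1 (-0.65), array 3 for Fgf21 (0.73) and array 2 for Ndufab1 (0.84). Of these genes Rxra did not pass the test, and Myh2 (0.13 ± 0.041, adjusted p = 0.0443), a muscle myosin gene, did not pass without array 1, 2 or 3, where its adjusted p was 0.106 to 0.135. Acta1, skeletal actin, was -0.69 ± 0.026. In Ndufab1 and Acta1 the whole range of the 4 arrays was under 0.1.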

How the results depend on the processing

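With no dye term 5481 features passed for pioglitazone (2432 up, 3049 down), and the differences from telmisartan and irbesartan passed for 814 and 1021. With each array scaled to a common spread, the differences passed for 1574 and 1639, 82 and 87 of them at 1.5-fold. Every other alternative kept the counts past the test, and that at 1.5-fold for pioglitazone, within 1.5 times. Leaving out single pioglitazone arrays gave 7233 to 7838 features past the test and 893 to 950 at 1.5-fold. In the fit of 12 arrays, leaving out any single array gave 1717 to 2410 for the difference from telmisartan; for that from irbesartan it was 2112 to 2437 without a pioglitazone or irbesartan array and 2780 to 3617 without a telmisartan array. With the array number as a replicate block in the fit of 12 arrays, 7363 features passed, 880 of them at 1.5-fold, and the differences passed for 1960 and 2362. The numbers are no evidence of pairs: same-numbered arrays of different drugs deviated together at 0.242 to 0.53, other arrays of the same channel order at 0.255 to 0.512, and once channel order was removed same-numbered arrays gave -0.037 to 0.034. In the separate fit of the pioglitazone arrays the calls of 11 of 258 named genes were lost with no dye term and of 2 to 8 genes without a single array; none of the 20 largest rises or falls lost its call. With probes averaged, Hspa4 reversed to 0.024 (adjusted p = 0.556), and Gsdme, Flna, Maf, Rps18 and Atp5pb moved by over 1.5 times, to 0.72, -0.37, -0.89, -0.49 and 0.42. The cause of these shifts was not tested, other than that averaging pools unlike probes.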
